A study of Mus musculus with 3 samples.

Results

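The genes described here encode the nuclear subunits of the mitochondrial oxidative phosphorylation system, grouped by respiratory complex. A gene was a member when a probe set of the array's value table was annotated to exactly 1 symbol that begins with Nduf, Uqcr or Atp5, that is Sdha to Sdhd or Cycs, or that is a Cox4 to Cox8 subunit. By this rule 72 of the 8251 genes of the array were members: 31 of complex I, 4 of complex II, 7 of complex III, cytochrome c itself, 15 of complex IV and 14 of complex V. The name prefixes also took in 2 assembly factors of complex I, Ndufaf1 and Ndufaf4, which are not subunits. For a gene with several probe sets, those with a plain suffix came first, and the brightest of them on average stood for the gene.

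RNA came from the neural retina of Rp1-/- mice, a knockout of the photoreceptor axoneme gene Rp1, on a mixed 129/SvEv and C57BL/6 background. All mice were killed at postnatal day 21 with collection between 1 and 2 pm, and each of the 3 samples pooled the retinas of 3 to 4 mice and was read on 1 U74Av2 array, a one-colour Affymetrix array. The 3 pools form 1 group with no control group analysed here, so no contrast between conditions and no test was made, and replicate numbers 1 to 3 only name the pools. The labels call the pools separate RNA samples without saying whether they came from separate litters, so the spread between them may hold biological and technical parts. No probe set carried the symbol Rp1, and the genotype therefore rests on the labels.

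Oxidative phosphorylation passes electrons from NADH (complex I) and succinate (complex II) through ubiquinone to complex III, then by cytochrome c to complex IV, which reduces oxygen. The protons pumped on the way drive ATP synthesis by complex V. Complex II is built from nuclear genes alone, whereas the other complexes combine nuclear subunits with a few encoded in mitochondrial DNA. Photoreceptors pack mitochondria into their inner segments and use much ATP for the dark current, and the retina is among the tissues with the highest oxygen use.

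Values below are signals, that is, deposited linear intensities after each array was scaled by 1 factor to a common trimmed mean. They are given for replicates 1, 2 and 3 in that order. A signal counted as above background when it exceeded the 95th percentile of the array's 19 bacterial and yeast control probe sets, a limit of 160.3, 80.7 and 107.1 in the 3 replicates. By this limit 5725, 6239 and 6075 of all genes were above background in replicates 1, 2 and 3. All 9 rod markers measured were above background on all 3 arrays, with summed signals of 105242, 150397 and 103851, so the labelled tissue carried its photoreceptor transcripts. The spread of 3 pools is a small sample, and precision is limited by the number of arrays. Probe sets respond differently, so no gene's signal is compared with another's. The orders of the pools and the spans given for single genes hold for this scaling. In pooled tissue, fewer cells of a type and less RNA per cell cannot be told apart.

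Most subunit genes were above background in every pool, and most had their highest signal in replicate 2, though not with the arrays scaled to the hybridization controls. Of the 72 members, 61 (84.7%) were above background on all 3 arrays, where 60.7% of all genes were. All members of complexes II and III and cytochrome c passed on every array, as did 29 of 31 of complex I, 10 of 15 of complex IV and 10 of 14 of complex V. Among these 61 genes, 46 (75.4%) were highest in replicate 2, where 33.0% of all genes above background were. The lowest signal fell in replicate 1 for 31 of the 61 (50.8%), where 36.0% of all genes had theirs. The order of replicate 1 lowest, replicate 3 between and replicate 2 highest was the most frequent one, with 28 members (45.9%) against 21.8% of all genes. Without replicate 1, 54 of 66 members (81.8%) were higher in replicate 2 than in replicate 3, as were 51.3% of all genes. Without replicate 3, 49 of 61 (80.3%) were higher in replicate 2 than in replicate 1, as were 45.6% of all genes.

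**Figure D1:**
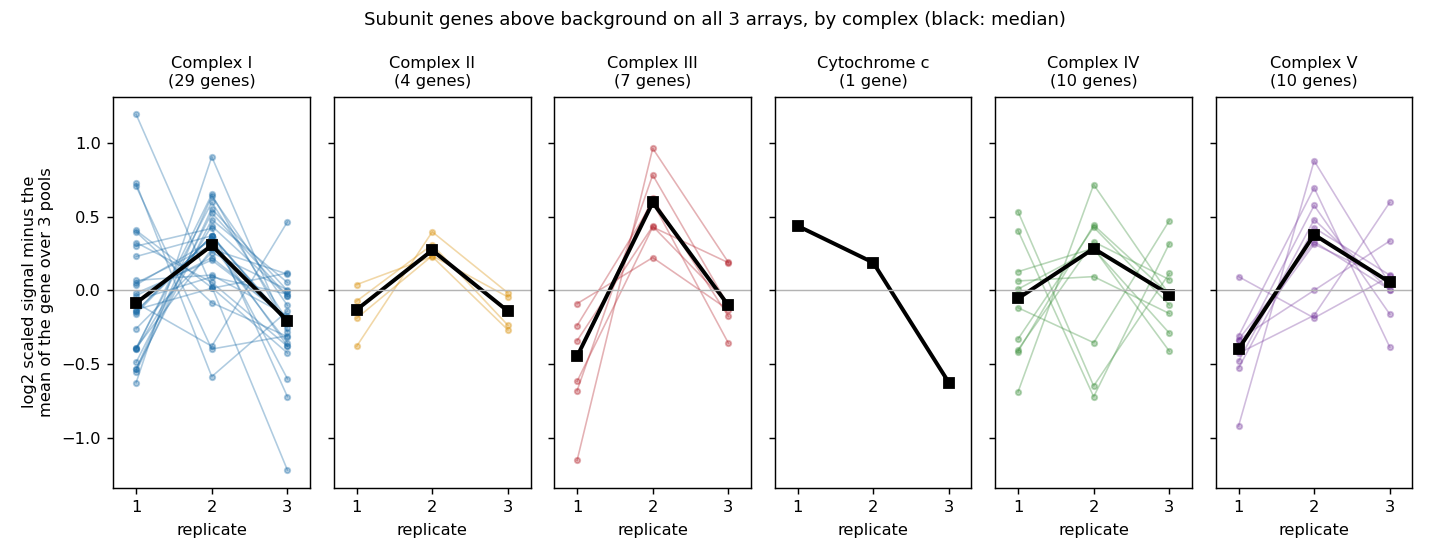
Each line is 1 gene above background on all 3 arrays, drawn as its log2 signal in each pool minus its own mean over the 3 pools, in 1 panel per complex; black squares are the panel's median. In complexes I to V the median is highest in replicate 2, and cytochrome c runs from highest in replicate 1 to lowest in replicate 3; with arrays scaled to the hybridization controls the medians of complexes I, II and IV were lower in replicate 2 than in replicate 1.

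The pattern differed with signal level. Of the 46 members with a mean signal of 1000 or more, 42 (91.3%) were highest in replicate 2, beside 54.1% of all genes of that level. Of the 15 weaker members, 4 (26.7%) were highest there, beside 24.0% of all genes of that level. Within narrower bands, the median log2 difference of replicate 2 minus replicate 1 was 0.51 for the 19 members and 0.21 for all genes between 1000 and 2000, and 84.2% and 46.9% were highest in replicate 2. Between 2000 and 4000 it was 0.77 for 16 members, each of them highest in replicate 2, and 0.41 for all genes, of which 59.0% were. At 4000 or more it was 0.86 for 11 members and 0.64 for all genes, and 90.9% and 82.4% were highest in replicate 2. Under 1000 it was -0.29 for the 15 members and -0.26 for all genes. The subunit genes thus lay above the median of all genes of similar signal in each band from 1000 up and not under 1000, and among all genes of 1000 or more the 54.1% highest in replicate 2 was the largest share of the 3 pools. With arrays scaled to the hybridization controls both shares were lower: 20 of 46 members (43.5%) and 10.4% of all genes of 1000 or more were then highest in replicate 2.

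**Figure D2:**
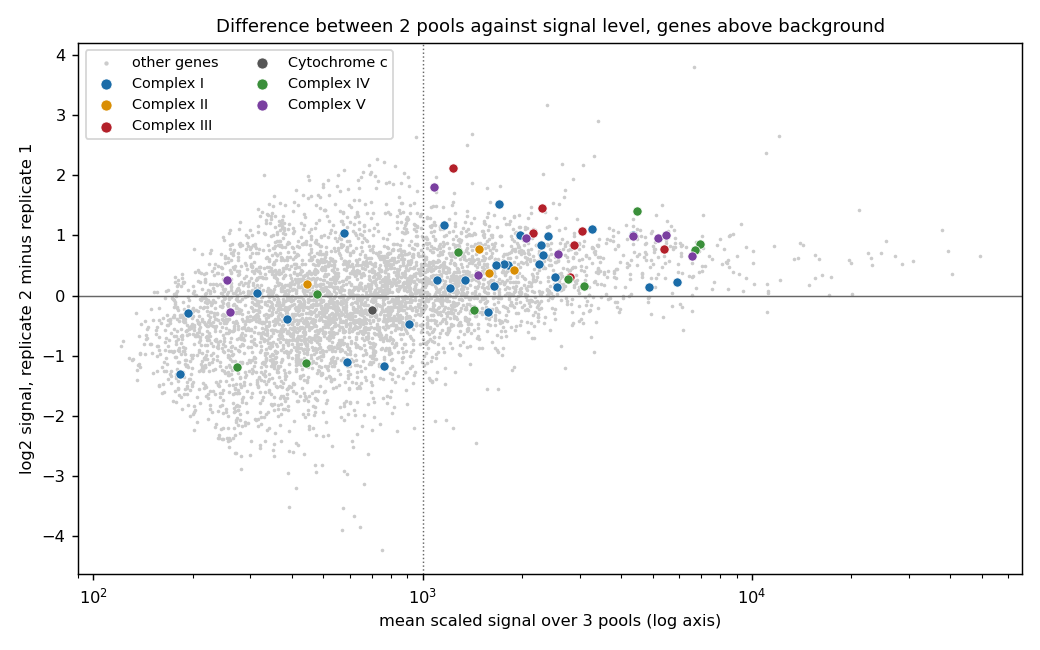
The log2 signal of replicate 2 minus replicate 1 is plotted against the mean signal over the 3 pools (log axis) for genes above background on all 3 arrays, with grey points for other genes, coloured points for subunit genes by complex and a dotted line at 1000. To the right of the dotted line most subunit genes lie above 0 and so does the larger part of the grey cloud, whereas to the left of it the subunit genes scatter on both sides; scaling to the hybridization controls lowers every point, and the median of all genes then lies at -0.54.

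How far these differences read as higher in replicate 2 depended on the scaling of the arrays. Across members, the median log2 difference of replicate 2 minus replicate 1 was 0.51 as scaled here, 0.96 with a common median, 0.27 after quantile normalization and 0.03 with arrays scaled to the hybridization controls. Those controls, bacterial and phage RNAs (BioB, BioC, BioDn and CreX) added to each hybridization mix, were themselves highest in replicate 2 in 9 of 9 probe sets, by 1.05-fold to 1.68-fold over replicate 1. Their part in the result was not tested. The median of all genes moved as well, from -0.05 to 0.40, 0.03 and -0.54 under the same settings. Relative to all genes, members stood 0.56 higher in replicate 2 than in replicate 1 under 3 of these scalings and 0.24 higher after quantile normalization. Those 3 scalings multiply each array by 1 factor, so their match in this value was fixed in advance. Of these scalings, only quantile normalization could change it. With the hybridization controls as scale, 21 of the 61 members (34.4%) and 5.69% of all genes were highest in replicate 2.

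**Figure D3:**
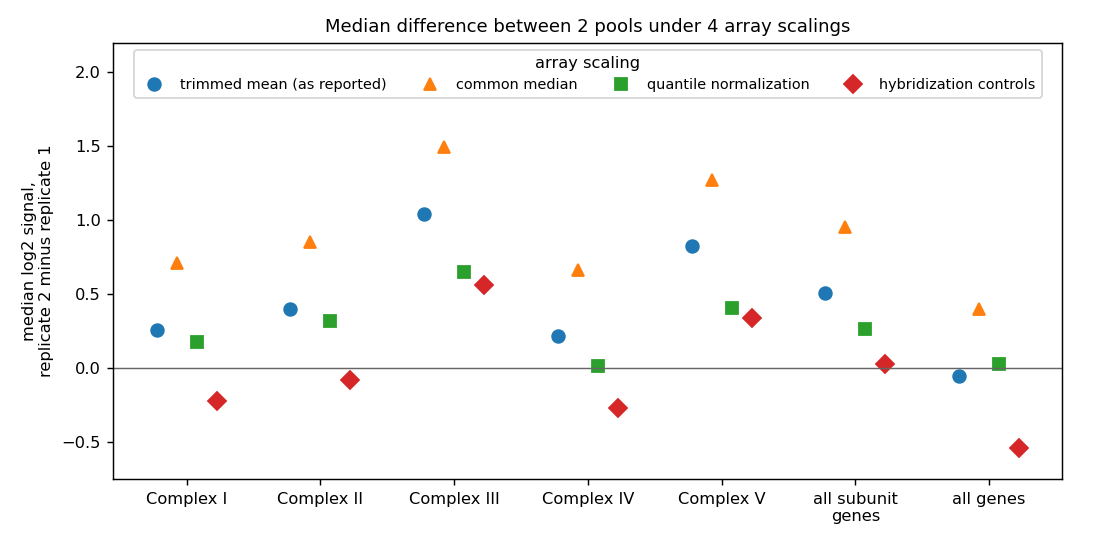
Symbols give the median log2 signal of replicate 2 minus replicate 1 for the subunit genes of each complex, for all subunit genes and for all genes above background, under 4 ways of scaling the arrays. Complexes III and V lie above 0 under each scaling, whereas complexes I, II and IV lie below 0 with the hybridization controls, where the median of all genes is -0.54.

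Cell type markers of the retina and of neighbouring tissues also differed between the pools. The summed signal of 4 lens markers, all highest in replicate 2, was 102996, 164473 and 121015. For the 4 red blood cell markers measured, 2 of them above background on all 3 arrays, the sums were 5490.3, 31716 and 8254. For 5 pigmented cell markers, 2 of them above background on all 3 arrays, the sums were 1422, 12026 and 7835, and 3 of these genes (Tyrp1, Tyr and Rdh5) were below background in replicate 1. The 5 Müller glia markers, all above background on every array, summed to 11290.1, 17536 and 14424. The 9 markers of inner retinal neurons, 8 of them above background on every array, summed to 13367, 14619 and 13516. Of these 8, 4 were highest in replicate 1, 1 (Car8) in replicate 2 and 3 in replicate 3. Of the 5 Müller glia genes, 3 were highest in replicate 2 and 2 (Glul and Vim) in replicate 1. Of the 9 rod markers, 5 were highest in replicate 2, 3 in replicate 1 and 1 in replicate 3. Among all genes above background, 42.6% were highest in replicate 1, 33.0% in replicate 2 and 24.4% in replicate 3. With a mean signal of 1000 or more these shares were 20.8%, 54.1% and 25.1%. At 4000 or more, 82.4% were highest in replicate 2. As scaled here, the only scaling computed for them, each of these marker sums was highest in replicate 2. So was each gene of the lens and pigmented cell lists, but not each gene of the other lists. The 6 markers of stroma and vessels, 4 of them above background on every array, instead summed to 2276, 2713 and 3566. No marker was at 0, and the part of these cells in the subunit pattern was not tested.

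The promoters of subunit genes are known for binding sites of Nrf1, of GA-binding protein and of Yy1. To show what such promoters look like, the widest-ranging gene highest in replicate 2 was taken from each of complexes I, III, IV and V, and its sequence is printed from 250 bases before the transcription start to 30 after it (RefSeq, GRCm38.p6). All 4 lie on the minus strand: Ndufc1 at chr3:51408926-51409205, Uqcr11 at chr10:80406792-80407071, Cox7a2 at chr9:79759824-79760103 and Atp5e at chr2:174464072-174464351. Each reads 5′ to 3′ in lower case, and capitals mark the motif letters found on either strand: GCGCANGC for the Nrf1 core, CCGGAAG for the GA-binding protein core and AAGATGGC for Yy1.
Ndufc1: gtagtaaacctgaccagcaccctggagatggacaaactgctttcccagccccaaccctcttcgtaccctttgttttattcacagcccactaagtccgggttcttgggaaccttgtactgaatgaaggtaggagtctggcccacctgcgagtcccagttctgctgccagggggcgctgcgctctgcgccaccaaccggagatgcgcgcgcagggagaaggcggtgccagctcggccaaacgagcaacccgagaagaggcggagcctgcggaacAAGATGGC
Uqcr11: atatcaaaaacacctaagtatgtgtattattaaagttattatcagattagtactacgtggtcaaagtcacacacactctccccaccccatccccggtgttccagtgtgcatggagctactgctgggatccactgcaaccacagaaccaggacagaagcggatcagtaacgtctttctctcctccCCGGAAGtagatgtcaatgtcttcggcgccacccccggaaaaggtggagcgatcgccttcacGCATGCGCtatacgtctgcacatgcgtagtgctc
Cox7a2: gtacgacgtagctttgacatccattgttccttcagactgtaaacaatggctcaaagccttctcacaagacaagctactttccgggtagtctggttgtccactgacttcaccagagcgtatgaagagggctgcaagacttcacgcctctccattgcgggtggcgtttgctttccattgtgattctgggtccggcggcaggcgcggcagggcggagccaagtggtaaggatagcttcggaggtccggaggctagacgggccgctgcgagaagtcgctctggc
Atp5e: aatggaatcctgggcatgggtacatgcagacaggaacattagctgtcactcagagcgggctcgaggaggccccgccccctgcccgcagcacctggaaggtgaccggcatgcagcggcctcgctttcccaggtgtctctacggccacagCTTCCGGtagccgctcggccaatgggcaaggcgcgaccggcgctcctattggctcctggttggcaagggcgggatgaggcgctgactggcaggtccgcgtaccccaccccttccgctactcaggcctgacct
In these letters, Ndufc1 held the Yy1 motif just after the start, Uqcr11 held a GA-binding protein core and an Nrf1 core, Atp5e held a GA-binding protein core, and Cox7a2 held none of the 3 motifs.

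Across the gene set, 59 of 72 members had 64 promoter windows of 250 bases before to 50 after a start. The Nrf1 core was found in 20 windows (31.2%), beside 16.8% of the 8408 windows of genes on the array. The GA-binding protein core was found in 16 (25.0%, beside 14.4%) and the Yy1 motif in 8 (12.5%, beside 3.73%). At least 1 of the 3 was found in 36 windows (56.2%), beside 30.2% for the array. Median GC content was 58.8% for members and 59.7% for the array. By complex, at least 1 motif was found in 16 of 30 windows of complex I, all 3 of complex II, 3 of 4 of complex III, 1 of 1 for cytochrome c, 3 of 11 of complex IV and 10 of 15 of complex V. A match gives only the presence of these letters and was not tested against the signals.

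**Figure D4:**
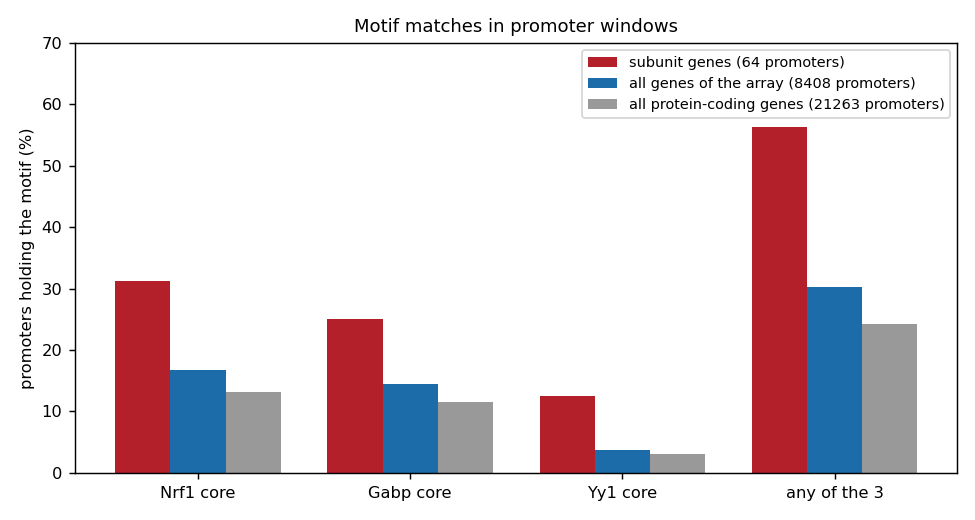
Bars give the share of promoter windows (%) that hold each motif on either strand, for the subunit genes, for all genes of the array and for all protein-coding genes of the RefSeq table. At least 1 of the 3 motifs is found in 56.2% of the 64 windows of subunit genes, 30.2% of the array's and 24.3% of all protein-coding windows.

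Complex I takes electrons from NADH. Its members had a median spread over the pools of 0.42 (SD of log2 signal, n = 3). Its 4 core subunits measured, Ndufv1, Ndufv2, Ndufs1 and Ndufs3, were above background throughout, with a median SD of 0.24. Ndufv1, which binds FMN and receives the electrons of NADH, had signals of 4453, 4923 and 5289, a mean of 4888 ± 419 (SD, n = 3). Ndufs1, the largest iron-sulphur subunit, had signals of 1578, 1760.3 and 1623, the smallest range of the 61 genes at 1.11-fold. As scaled here, these 2 genes were nearly level across the pools. Ndufv2, an iron-sulphur subunit, spanned 1.65-fold and Ndufs3, of the peripheral arm, 2.02-fold, both with their highest signal in replicate 2.

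The accessory subunits, which surround the core, had a median SD of 0.43. Ndufa6 had signals of 1399, 622 and 263, a 5.33-fold span and the widest of the 61 genes above background. It was highest in replicate 1, the reverse of most members. Ndufc1, whose promoter holds the Yy1 motif, had signals of 989, 2860.1 and 1256, highest in replicate 2 and 2.89-fold above replicate 1. Ndufc2 had signals of 282, 113 and 154, and Ndufb3 of 755, 1706 and 1021. Thus Ndufb3 shared the order of Ndufc1, whereas Ndufc2 was highest in replicate 1. Of the other 19 accessory subunits above background, Ndufa10 (2.15-fold), Ndufa13 (1.64-fold) and Ndufb9 (1.63-fold) were highest in replicate 1, Ndufa1 in replicate 3, and the rest in replicate 2. Their spans ran from 1.31-fold for Ndufb5 to 2.21-fold for Ndufab1, the mitochondrial acyl carrier protein. A second probe set of Ndufa3, above background on each array, gave 227, 149 and 136, highest in replicate 1.

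On at least 1 array, 2 accessory subunits of complex I were not above background. Ndufs4, of the peripheral arm, had signals of 48.3, 236 and 229 and was below background in replicate 1, so its level in replicates 2 and 3 was at least 1.47-fold and 1.43-fold above the limit of replicate 1. Ndufa12 had signals of 180.3, 73.8 and 63.3 and was above background in replicate 1 alone. The assembly factors had signals of 327, 335 and 277 for Ndufaf1 and 500.2, 382 and 281 for Ndufaf4. Ndufaf1 differed little between the pools, whereas Ndufaf4 was highest in replicate 1.

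Complex II, which oxidises succinate as a step of the citric acid cycle, gave all 4 of its genes above background and all highest in replicate 2. The flavoprotein Sdha had signals of 454, 518 and 367 and the iron-sulphur subunit Sdhb of 1489.7, 1942 and 1330.0, each lowest in replicate 3. The membrane anchors had signals of 1656, 2222 and 1831 for Sdhc and 1117, 1914 and 1436 for Sdhd, each lowest in replicate 1. The spans were 1.34-fold to 1.71-fold, and the median SD, 0.27, was below that of all genes, 0.36. The median log2 difference of replicate 2 minus replicate 1 was 0.40, and -0.08 with arrays scaled to the hybridization controls.

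Complex III, which moves electrons from ubiquinol to cytochrome c, had the largest median difference of the 5 complexes. Its 7 genes were all highest in replicate 2, with a median log2 difference from replicate 1 of 1.05, and 0.57 with arrays scaled to the hybridization controls. The widest span was that of the small subunit Uqcr11, whose promoter holds the 2 other motifs, with signals of 473, 2049.8 and 1199, 4.34-fold from replicate 1 to replicate 2. Uqcr10 had signals of 1322, 3644 and 1973 and Uqcrb of 2119.6, 4458 and 2558. All 3 shared the order of replicate 1 lowest and replicate 2 highest. The core protein Uqcrc2 had signals of 1353, 2794 and 2363 and the core protein Uqcrc1 of 2618, 3251 and 2544. Uqcrq had signals of 4171, 7143 and 4952, and the hinge protein gene Uqcrh had signals of 2342, 4178 and 2156. Replicates 1 and 3 were close for Uqcrc1 and Uqcrh, and apart for Uqcrc2. The 5 small subunits had a median difference of 1.07 and the 2 core proteins one of 0.68. No difference between complexes was tested.

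Cytochrome c, the soluble carrier from complex III to complex IV, ran the other way as scaled here. Cycs had signals of 906, 762 and 434, a 2.09-fold span with replicate 1 highest and replicate 3 lowest. That order was found in 5 of the 61 members (8.20%), Cycs included, and in 20.4% of all genes above background. With a common median, Cycs was instead highest in replicate 2, at a log2 difference of 0.20 from replicate 1. Its mean signal was 701, and 51.9% of all genes under 1000 were highest in replicate 1.

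Complex IV, cytochrome c oxidase, has subunits that exist as tissue isoforms, and these differed from each other across the pools. Among subunits found in most tissues, Cox7a2 had signals of 2568, 6806 and 4057 and Cox6a1 of 5070.1, 9189.8 and 6634, both highest in replicate 2. Cox4i1 had signals of 374, 165 and 279.6 and Cox6b1 of 552, 253 and 519, both lowest in replicate 2. A second probe set of Cox4i1 had signals of 228, 183 and 316, again lowest in replicate 2 but highest in replicate 3. Cox7b had signals of 2746, 3318 and 2233, highest in replicate 2, as were Cox5b (1.62-fold) and Cox6c (1.69-fold). Cox7a2l, which helps join complex IV to complex III in supercomplexes, had signals of 952, 1581 and 1324. The median of the 10 genes, 0.22 for replicate 2 minus replicate 1 (log2), was the smallest of the 5 complexes. It was -0.27 with arrays scaled to the hybridization controls. That rank depended on signal level. Among genes with a mean signal of 1000 or more, the median was 0.73 for the 7 of complex IV. At that level it was 0.51 for complex I and 0.42 for complex II.

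The heart and muscle isoforms Cox6a2 and Cox7a1 were above background in replicate 1 alone. Cox6a2 had signals of 467, 44.3 and 75.7, which puts replicate 1 at least 5.79-fold above the limit of replicate 2 and at least 4.36-fold above that of replicate 3. Cox7a1 had signals of 218, 15.9 and 23.3, at least 2.71-fold and 2.04-fold above the same limits. Across the array, 382 genes (4.63%) were above background in replicate 1 alone. Among 10 skeletal and heart muscle markers, 2 (Mylpf and Atp2a1) were above background on all 3 arrays, and the summed signal was 1935, 1001 and 937. Myoglobin (Mb) had signals of 449, 72.8 and 14.6, Tnnt3 of 289, 68.8 and 36.9 and Atp2a1 of 566, 113 and 128, each highest in replicate 1. The muscle creatine kinase Ckm had signals of 71.3, 299 and 266 and Acta1 of 56.7, 186 and 206, each below background in replicate 1, and Myh1, Myh4, Myh7 and Tnni2 were below background on every array. The muscle markers thus did not share 1 order, and their part in the 2 isoforms was not tested.

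The third heart and muscle isoform, Cox8b, had signals of 50.6, 179 and 143 and was below background in replicate 1, and its other probe set gave 432, 588 and 509.9. The ubiquitous isoform Cox8a had signals of 155, 31.6 and 84.5, below background on each array. The testis isoforms had signals of 496, 507 and 426 for Cox6b2 and 1281, 1087 and 1929 for Cox8c, Cox6b2 nearly level and Cox8c highest in replicate 3. Another probe set of Cox6b2 gave 914, 37.7 and 131, so the level across the pools depends on which probe set is read. Cox5a had signals of 39.8, 41.5 and 103, also below background on each array, and a signal under the limit does not show that a transcript is absent.

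**Figure D5:**
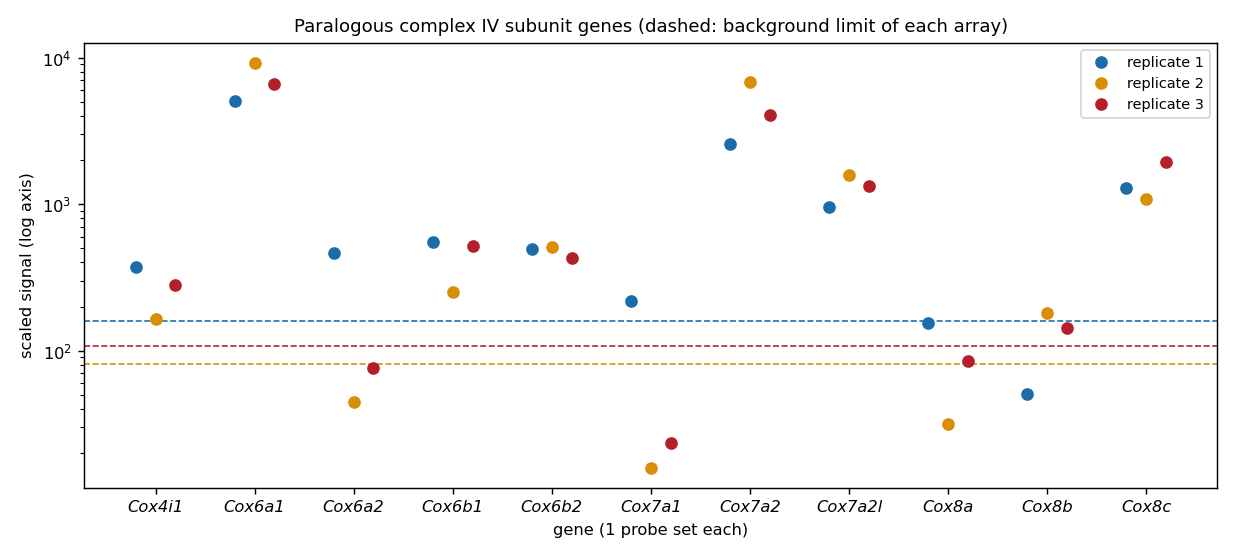
Points give the signal (log axis) in each pool of 1 probe set for each paralogous complex IV gene, with dashed lines at the background limit of each array in the same colours. Cox6a2 and Cox7a1 clear their limit in replicate 1 alone, with 467 and 218, and Cox8a lies under the limits of all 3 arrays; heights of different genes are not comparable.

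Complex V, the ATP synthase, had 10 of its 14 genes above background on all arrays, with a median log2 difference of replicate 2 minus replicate 1 of 0.82, and 0.34 with arrays scaled to the hybridization controls. Among subunits of the catalytic F1 part, the epsilon gene Atp5e, with a GA-binding protein core in its promoter, had signals of 504, 1755 and 983, a 3.48-fold span. The alpha gene Atp5a1 had signals of 5129.7, 8136 and 6489.7, and the gamma gene Atp5c1 spanned 1.62-fold. All 3 were lowest in replicate 1 and highest in replicate 2. Among membrane subunits, Atp5md had signals of 4168, 8372 and 3958 and Atp5mpl of 3137, 6234 and 3738, both highest in replicate 2, as was Atp5l (1.94-fold). A second probe set of Atp5l, above background on each array, gave 179, 179 and 209, highest in replicate 3.

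The peripheral stalk, which holds the F1 part still against the rotor, had all 3 genes lowest in replicate 1. Atp5pb had signals of 181, 216 and 368. Atp5j spanned 1.59-fold with replicate 3 highest, like Atp5pb, and Atp5o, the OSCP subunit, spanned 1.95-fold with replicate 2 highest. The c subunit of the rotor ring is encoded by several genes with different import sequences and the same mature protein. Atp5g1 had signals of 275, 227 and 276, a span of 1.22-fold. Atp5g2 had signals of 44.8, 66.5 and 182, above background in replicate 3 alone, whereas its other probe set gave 703, 702 and 593 and was above background on each array.

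The remaining genes of complex V were below background in replicate 1. Atp5d, the delta gene of F1, had signals of 64.6, 153 and 332, replicate 3 being at least 2.07-fold above the limit of replicate 1. Of its 4 other probe sets, 3 were above background on all arrays, and they placed the highest signal in replicates 1, 2 and 3 respectively, so no order of the pools can be read for Atp5d. Atp5j2 had signals of 39.9, 110.5 and 161 and Atp5k of 48, 174 and 137. Together with Ndufs4, Cox8b and Atp5d they make 5 members above background in replicates 2 and 3 but not in replicate 1, where 733 of all genes (8.88%) had that pattern.

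How wide the spans of the subunit genes were beside those of other genes depended on the scaling. A log2 range of at least 1, that is 2-fold, was found in 21 of 61 members (34.4%), where 28.3% of all genes above background had one. The median SD was 0.42 for members and 0.36 for all genes. Among genes with a mean signal of 1000 or more, 28.3% of members and 16.6% of all genes had such a range, with a median SD of 0.39 and 0.32. Under 1000, 53.3% of the 15 members and 33.3% of all genes had one, with a median SD of 0.53 and 0.39. With a common median the shares were 52.5% of members and 34.2% of all genes, but the direction turned after quantile normalization (18.0% and 25.5%) and with arrays scaled to the hybridization controls (21.3% and 39.2%). The count of 21 rests on replicates 1 and 2. Without replicate 1 it was 6 (9.09%, and 5.66% of all genes), without replicate 2 it was 6 (9.84%, and 17.8%) and without replicate 3 it was 18 (29.5%, and 21.9%).

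Other genes of the pathway are counted beside all genes above background, of which 42.6% were highest in replicate 1, 33.0% in replicate 2 and 24.4% in replicate 3. None of the subunits encoded in mitochondrial DNA had a probe set with 1 symbol. Of 43 assembly factors listed beside the members, 19 were measured and 16 were above background on all 3 arrays, 8 highest in replicate 1, 5 in replicate 2 and 3 in replicate 3. The copper chaperone gene Cox17 had signals of 969, 1951 and 1325 and Surf1, which acts in haem insertion, of 312, 704 and 591, both in the order most frequent among members. Acad9, an assembly factor of complex I, had signals of 1110.4, 311 and 314, highest in replicate 1. Of 22 carriers and other inputs to the chain measured, 13 were above background, 7 highest in replicate 1, 4 in replicate 2 and 2 in replicate 3. The adenine nucleotide carrier gene Slc25a4, which exports ATP, had signals of 8278, 13915 and 8072, and Ckb, the brain creatine kinase, of 15643, 17699 and 11339.7. Both were highest in replicate 2, as were 82.4% of all genes with a mean signal of 4000 or more, the level of both.

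Of 16 regulators of subunit genes and of mitochondrial DNA expression measured, 11 were above background, with 7 highest in replicate 2, 3 in replicate 1 and 1 in replicate 3. Gabpa, the DNA-binding part of the GA-binding protein, had signals of 436, 408 and 468 and Yy1 of 1095, 1101 and 900.4, both with little range. The coactivator gene Ppargc1a had signals of 589.6, 123 and 104, highest in replicate 1 and below background in replicate 3. Its partner Esrra had signals of 1539, 582 and 1049, and Tfb2m, a transcription factor of mitochondrial DNA, of 508, 138 and 112. These 3 genes were highest in replicate 1, as were 42.6% of all genes above background. With a mean signal under 1000, the level of Ppargc1a and Tfb2m, the share was 51.9%. At 1000 or more, the level of Esrra, it was 20.8%. The 3 genes were picked after their values were seen, and a link to the subunit genes was not tested. Tfam was below background on each array. Atpif1, which inhibits complex V, had signals of 1754, 2389 and 1658.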

How the data were processed

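RNA of 3 pools of mouse retina was hybridised to 1 Affymetrix array each. The authors deposited a table of linear intensities for 12488 probe sets. The software, background correction and scaling behind the authors' deposited intensities are not given in the sources used here. Detection calls were not used.

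Each array was multiplied by 1 factor (0.9985 to 1.0017) to a common mean, trimmed by 2% at each end, over 12422 probe sets that are not controls. Values under the array's 5th percentile were set to it before log2. Gene names came from the platform annotation, with 10833 probe sets of 1 symbol, 396 of several and 1193 of none, and only the first kind was used. All 72 members matched the RefSeq table (GRCm38.p6) by gene ID, with the same symbol, and 20 of them had several probe sets. A pool's deviation is its log2 signal minus the mean of the other 2.

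Values in all pools are given for the 4 widest and 2 narrowest members of each complex, members below background on an array, complex II, cytochrome c and paralogous subunits, and Uqcrh and the assembly factors were added to complete their groups. No member met a further condition, probe sets above background that order the pools differently, each by a range of 1 or more. Other genes came from lists of assembly factors, regulators, carriers and cell types, and those named from them were chosen after their values were seen. Members and lists were chosen with earlier results of these data known. The computations were tested on simulated data. With 1 group, no test between samples was made. Python 3.11.15, numpy 2.4.6, pandas 2.3.3 and matplotlib 3.10.9 were used.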

Additional observations from a re-analysis of the deposited data

How the results depend on the processing

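The count of members with a range of 1 or more, 21, depended most on the processing: 32 with a common median, 11 after quantile normalization, 32 with no filter on low values, 6 to 18 when 1 replicate was left out (6 without replicate 1, 6 without replicate 2) and 13 with arrays scaled to the hybridization controls, a setting chosen after seeing the data. The share of members was above that of all genes with a common median (52.5% and 34.2%) and below it after quantile normalization (18.0% and 25.5%), with no filter (44.4% and 49.8%), without replicate 2 (9.84% and 17.8%) and with the hybridization controls (21.3% and 39.2%). Leaving out samples changes how many values enter the range, and leaving out the filter changes which genes are counted. The cause under the scalings was not tested. In all, 67 of 73 recomputed values stayed within the spread between replicates or within 1.5 times the count, and 6 moved. That limit is loose for the deviations given next. A change of sign in replicate 3 without replicate 2, and a fall to -0.09 in replicate 1 after quantile normalization, both counted as staying. The 67 thus do not show that the deviations held. For replicates 1, 2 and 3, the median deviation of members less that of all genes was -0.35, 0.50 and -0.12. After quantile normalization these were -0.09, 0.23 and -0.17. Replicate 3 stood at 0.22 without replicate 2, so its sign rests on that pool. Without replicate 3, replicates 1 and 2 stood at -0.60 and 0.60. Relative to all genes, complex IV lost its lean to replicate 2 after quantile normalization, with a median of -0.02 for replicate 2 minus replicate 1. A common median moved the median of all genes in that difference from -0.05 to 0.40. No paired analysis was possible because the samples form 1 group. With 3 arrays and no detection calls, signals near the background limit give no order of the pools.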

Other observations

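Probe sets annotated to several symbols were not members, and 10 of them list a subunit gene beside a pseudogene or a near-identical copy. A probe set of Cox7c and Gm12338 had signals of 11017, 21412 and 16033 in replicates 1, 2 and 3, and another of the same pair had 4501, 8697 and 8365. A probe set of Atp5c1 and its pseudogene had signals of 3545, 8365 and 5705. Those of Ndufs6 and Ndufs6b had 693, 1989 and 1216 for one and 1924, 2172 and 1780.2 for the other. All 5 of these probe sets were highest in replicate 2. So were 33.0% of all genes above background, 54.1% of those with a mean signal of 1000 or more and 82.4% at 4000 or more. Of the 10 probe sets, all 8 that were above background on every array were highest there. Of the other 2, that of Ndufb4 and its copies had 65.8, 114 and 354, highest in replicate 3, and that of Atp5md and Gm35857 was below background on each array. Which gene gave the signal cannot be told apart.

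Some second probe sets of members were bright in replicate 1 alone. One of Ndufb2 had signals of 719.6, 11.4 and 9.5, whereas the probe set used for that gene had 2128, 4586 and 3119. One of Ndufa1 had signals of 329, 14.6 and 11.4, beside 177, 144 and 259 for the one used.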
